A study of Mus musculus with 30 samples.

Results

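Circulating leukocytes of DBA/2 mice were compared between the second and the first day after cyclophosphamide, an alkylating drug that is toxic to dividing cells. The comparison took the 4 blood samples labelled 2 days and the 4 labelled 1 day, 8 of the 15 samples of the series. The others were 4 untreated samples and 3 taken at day 5, and they enter here as levels set beside the comparison and through the estimate of spread. Treated mice had received 83 mg/kg cyclophosphamide by intraperitoneal injection, and untreated mice none. The labels give no age or sex, and do not say how many mice gave 1 sample.

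Each sample was measured on 2-colour arrays, with amplified RNA of the blood leukocytes in Cy5 and a bone marrow reference in Cy3. The cell type label describes that reference as a pool of untreated marrow, while a treatment label of the same channel names the drug. A value is a log ratio of blood over marrow, so a level above 0 means more signal in blood than in marrow, relative to the other transcripts on the array. No source used here states the logarithm's base, and it was taken as 2. Every sample was hybridised in 2 technical replicates, which were averaged and counted as 1 sample. Of 13027 genes or unnamed probes on the array, 6788 had a value in at least 3 of the 4 samples on each side and were tested, 4929 of them with a gene symbol. The other 6239 could not be tested, and 2572 of those had no value in any day 1 or day 2 sample.

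As background, blood leukocytes turn over at very different rates. Neutrophils live for a short time in blood and are replaced from dividing marrow precursors through stores of mature cells that granulocyte colony-stimulating factor helps to release. Monocytes are also replaced from marrow within days, while most T cells, B cells and natural killer (NK) cells in blood are longer lived. Cyclophosphamide needs activation in the liver, after which its products crosslink DNA, so that dividing precursors and lymphocytes are its best known targets in blood.

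The 2 days differed in a small set of transcripts. At an adjusted p under 0.05 in limma, 67 features were called (0.987% of those tested), 33 higher at day 2 (0.486%) and 34 lower (0.501%). With no adjustment, 783 features had a p under 0.05 (11.5%), of which 312 were higher (4.6%) and 471 lower (6.94%). All 67 called features had day 1 and day 2 values that did not overlap, against 4.45% of the tested features lying wholly above and 4.71% wholly below. The median change over all tested features was -0.00141 log2 units. The rises were 0.46 to 1.78 log2 units, with a median of 0.84, and the falls 0.54 to 1.68, with a median of 1.10. A gene symbol was available for 27 of the rises and 25 of the falls; the most strongly called rise of all, 1.78 log2 units with an adjusted p of 8.49e-05, came from a probe without one.

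**Figure D1:**
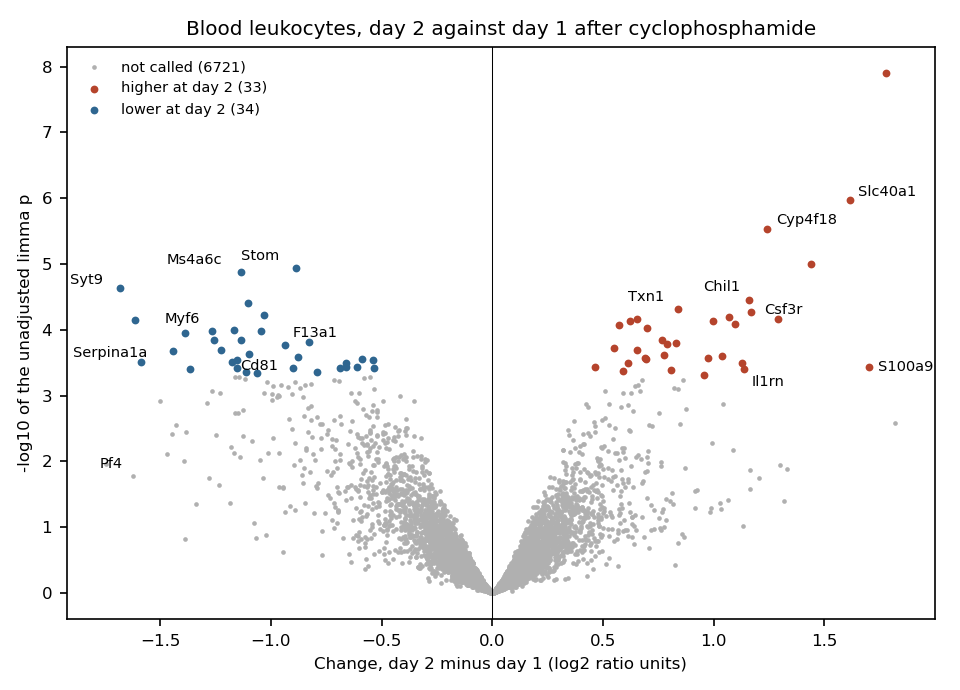
Change from day 1 to day 2 in log2 ratio units (horizontal) against the -log10 of the unadjusted limma p (vertical) for 6788 tested features. The 33 features called higher (red) include Slc40a1, Cyp4f18 and the neutrophil genes S100a9, Csf3r and Chil1; the 34 called lower (blue) include Ms4a6c, Stom and Syt9, while Pf4, with a difference of -1.62, is grey.

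Day 2 was the highest of the 4 group means for 33 of the 33 called rises, against 2184 of the 6788 tested features. Day 5 was the lowest for 22 of the 33 rises, against 2499 of the 6788. The median level of the rises was -0.44 in untreated blood, -0.38 at day 1, 0.48 at day 2 and -0.77 at day 5. The same samples chose the rises, so that the place of day 2 in this order is a description. The falls were less uniform, and 2 kinds of them are described separately after the rises.

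S100a9, Csf3r and Chil1, markers of mature neutrophils, rose. Of 10 tested genes on a list of mature neutrophil markers, 3 were called higher (0.486% of all features were) and none lower. The difference was positive in 10 of 10, and 7 had an unadjusted limma p under 0.05 in that direction (beside 4.6% of all features). The median difference of the list was 0.82 log2 units, against -0.00141 over all features. In bulk blood, a different share of neutrophils among the leukocytes and a different amount of these RNAs per neutrophil cannot be told apart.

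S100a9 (gene 20202) encodes a subunit of calprotectin, an abundant protein of the neutrophil cytosol. It measured -2.18, -2.41, -2.20 and -2.51 in the 4 day 1 samples and -0.59, -0.48, -1.02 and -0.41 at day 2. The groups were well apart and replicate 3 was the lowest of the day 2 samples. The difference was 1.70 ± 0.37 log2 units (SE, 4 against 4 samples), with an adjusted p of 0.044 in limma; on a base 2 scale this is a 3.26-fold higher ratio. Untreated samples averaged -2.34 ± 0.81 (SD, n = 4), so S100a9 at day 1 was at the untreated level.

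Csf3r, the receptor for granulocyte colony-stimulating factor (gene 12986), was at 1.06, 0.96, 0.45 and 0.91 at day 1 and at 2.24, 2.00, 1.34 and 2.47 at day 2. The sample numbered 3 was the lowest on each day, and the lowest day 2 value still lay above every day 1 value. Csf3r rose by 1.17 ± 0.21 (adjusted p = 0.028, limma); it averaged 0.45 in untreated blood and -0.22 at day 5. Chil1, a secreted chitinase-like protein that neutrophils store in granules (gene 12654), went from -1.46, -1.74, -1.70 and -1.69 to 0.14, -0.84, -0.86 and -0.40. The tightly grouped day 1 samples were all below the more scattered day 2 samples, of which replicate 1 was the highest. Chil1 rose by 1.16 ± 0.20 (adjusted p = 0.028, limma).

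The 7 other tested neutrophil markers missed the threshold, all with positive differences. Fpr2, a formyl peptide receptor that senses bacterial products, came nearest: it measured -0.70, -1.02, -1.36 and -1.07 at day 1 and between -0.67 and 0.07 at day 2, a difference of 0.84 ± 0.20 with an adjusted p of 0.061 in limma. The gelatinase Mmp9 had a difference of 0.85, the lectin receptor Clec4e 0.80, the surface glycoprotein Cd177 0.63 and the receptor Trem1 0.59. The Mmp9 probe with all values gave 1.35. Another, with values in 2 day 1 samples and 1 day 2 sample, gave 0.09. Trem3 (0.29) and Alox5ap (0.13), which is needed for leukotriene synthesis, had the smallest differences, and in Alox5ap the days overlapped widely. Of the 25 listed markers, 19 were on the array. The partner of S100a9, S100a8, as well as Itgam and Mmp8 had too few values to be tested.

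The 3 called neutrophil genes were chosen by their rise, and their promoters are shown so that the rise can be set beside their sequence. The windows are RefSeq entries on GRCm38.p6, from 250 bases before to 50 bases after the annotated start, and all 3 genes matched 1 entry each. Capitals mark matches, on either strand, to 2 short motifs of the main regulators of neutrophil genes. The C/EBP letters TTGCNNAA (reverse complement TTNNGCAA) are found in 3547 of 32851 such windows (10.8%), and the PU.1 letters GAGGAA (reverse complement TTCCTC) in 9289 (28.3%).
S100a9, chr3:90695672-90695971, minus strand: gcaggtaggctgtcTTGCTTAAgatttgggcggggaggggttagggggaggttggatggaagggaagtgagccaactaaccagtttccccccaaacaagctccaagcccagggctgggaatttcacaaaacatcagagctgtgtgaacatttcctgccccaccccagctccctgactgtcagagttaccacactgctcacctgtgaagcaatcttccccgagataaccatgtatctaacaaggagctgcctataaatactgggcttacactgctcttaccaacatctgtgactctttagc
Csf3r, chr4:126024409-126024708, plus strand: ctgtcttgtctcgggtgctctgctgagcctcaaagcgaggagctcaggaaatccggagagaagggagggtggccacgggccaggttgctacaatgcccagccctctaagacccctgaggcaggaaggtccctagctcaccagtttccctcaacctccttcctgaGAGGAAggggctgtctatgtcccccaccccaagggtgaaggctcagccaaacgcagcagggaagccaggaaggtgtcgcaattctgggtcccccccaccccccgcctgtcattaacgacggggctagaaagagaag
Chil1, chr1:134181906-134182205, plus strand: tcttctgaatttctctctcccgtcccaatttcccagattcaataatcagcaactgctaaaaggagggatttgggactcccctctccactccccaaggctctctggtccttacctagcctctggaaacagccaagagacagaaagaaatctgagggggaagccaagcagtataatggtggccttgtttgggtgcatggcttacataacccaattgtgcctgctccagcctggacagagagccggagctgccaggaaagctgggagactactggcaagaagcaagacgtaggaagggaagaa
The S100a9 window holds the C/EBP letters as TTGCTTAA at bases -236 to -229 from the start, and the Csf3r window holds GAGGAA at -86 to -81. The Chil1 window holds neither run of letters. A match describes the letters in the window and is no measure of binding.

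Cyp4f18, a cytochrome P450 that hydroxylates leukotriene B4 and other lipids in mouse neutrophils (gene 72054), was not on the marker list and was among the most strongly called rises. It measured 0.66, 1.13, 0.54 and 0.58 at day 1 and 2.16, 2.03, 1.64 and 2.05 at day 2. The lowest day 2 sample, replicate 3, stood clear of the highest day 1 sample. Cyp4f18 rose by 1.24 ± 0.17 (adjusted p = 0.0066, limma), having been at 0.65 in untreated blood, and averaged -0.85 at day 5.

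Genes of earlier granulocyte stages gave a mixed picture. Of 7 tested genes for granule proteins of neutrophil precursors, 0 were called in limma. Differences were positive in 4 and negative in 3, with a median of 0.05. In limma 1 had an unadjusted p under 0.05 as higher and 1 as lower (beside 4.6% and 6.94% of all features). The list median per sample was between -1.99 and -1.39 at day 1 and between -1.36 and -1.10 at day 2, without overlap. The glutathione transferase Mgst1 had a difference of 0.58 (adjusted p = 0.085, limma) and the protease Ctsc, which activates granule proteases, one of -1.01 (adjusted p = 0.19, limma). Mpo, Elane, Camp and Lcn2 were not tested for lack of values. Among the 4 tested genes of the phagocyte NADPH oxidase and Fc receptors, all differences were positive with a median of 0.33 and none was called; the kinase Syk (0.64, adjusted p = 0.058 in limma) and the oxidase subunit Ncf1 (0.48) were the largest.

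Among the rises with a gene symbol, Slc40a1 (gene 53945) had the smallest adjusted p and, after S100a9, the largest size. It encodes ferroportin, the iron exporter of the cell surface. It stood at -1.15, -1.36, -1.29 and -0.94 at day 1 and at 0.46, 0.42, 0.16 and 0.69 at day 2. All day 2 samples were above 0, meaning more signal in blood than in marrow, and all day 1 samples were below. The rise was 1.62 ± 0.21 (adjusted p = 0.0036, limma), a 3.06-fold higher ratio on a base 2 scale. Untreated blood averaged -1.64 ± 0.12 (SD, n = 4) and day 5 blood -3.36, so that day 2 was the only one of the 4 groups with a mean above 0.

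Hp, or haptoglobin, binds free haemoglobin and is stored in neutrophil granules besides being made in the liver. It went from -0.45, -0.44, -0.67 and -0.61 at day 1 to 0.34, 0.08, 0.32 and 1.07 at day 2. Replicate 4 was the highest day 2 sample and the groups did not overlap. Hp rose by 1.00 ± 0.19 (adjusted p = 0.028, limma). Of 9 tested genes for iron and heme handling these 2 were called, both higher (beside 0.486% of all features), and the median over the 9 was 0.06.

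Ppox, the enzyme of the next to last step of heme synthesis, was at -2.75, -2.70, -2.44 and -2.58 at day 1 and at -0.87, -1.77, -2.05 and -1.96 at day 2. Replicate 1 was by far the highest day 2 sample. The rise was 0.96 ± 0.22 (adjusted p = 0.049, limma). It was the 1 called gene among 21 tested erythroid genes (0.486% of all features were called higher), whose median difference was 0.03. Of the other heme enzymes, Cpox and Fech were tested and not called, and Alad, Urod and Uros had too few values to be tested. Chosen after their values were seen, Alas2, the erythroid enzyme that starts heme synthesis, had a difference of -1.43 (adjusted p = 0.12, limma) and the mitophagy receptor Bnip3l, used in red cell maturation, one of -0.55 (adjusted p = 0.051). Hba-a1, for an alpha globin, had a difference of -0.13 with a 95% interval of -0.41 to 0.14; its near-identical copy cannot be told from it here.

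**Figure D2:**
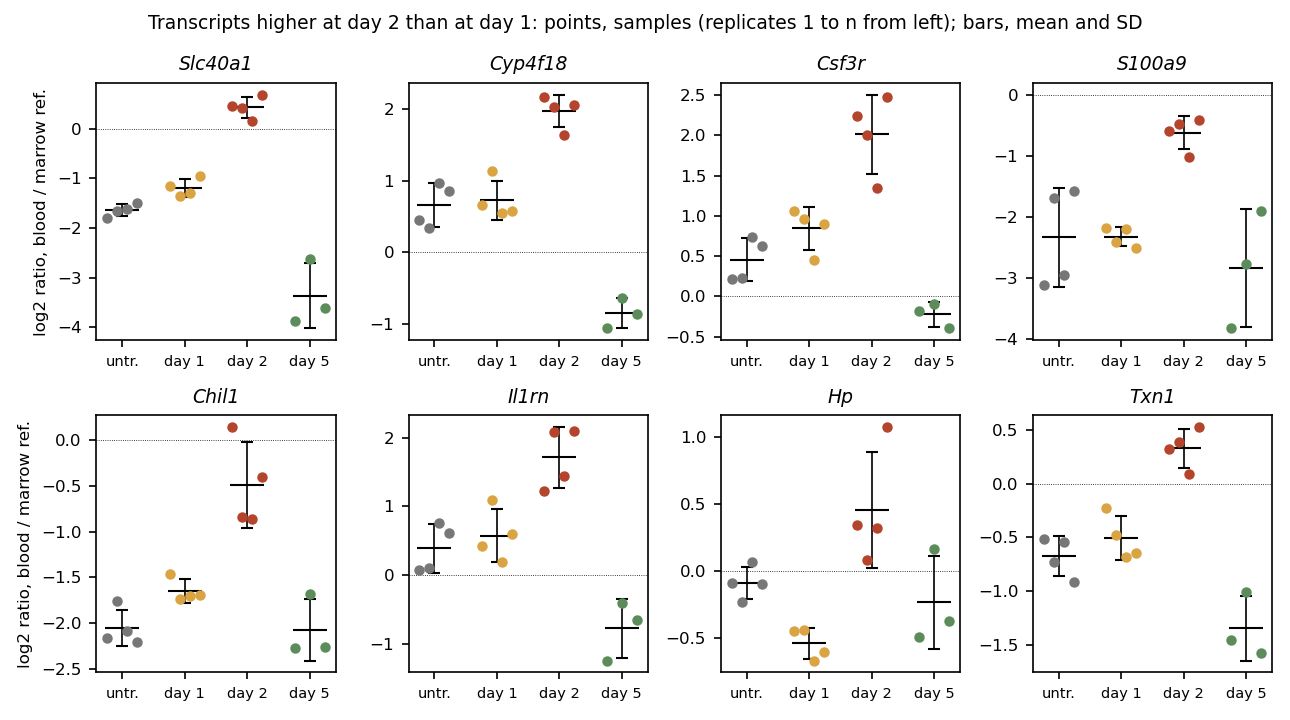
Log2 ratio of blood over marrow reference in each sample for 8 of the called rises, by group; points are samples, replicates in order from the left, and bars give the mean and SD (n = 4, at day 5 n = 3). In each of the 8 panels the day 2 points lie above the day 1 points, and the day 2 mean is the highest of the 4.

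Il1rn and Il1rap, of interleukin-1 signalling, rose. Il1rn, the secreted antagonist of the interleukin-1 receptor, measured 0.43, 1.09, 0.19 and 0.59 at day 1 and 1.23, 2.08, 1.45 and 2.10 at day 2. Replicate 2 was the highest at day 1 and lay just under the lowest day 2 sample. Il1rn rose by 1.14 ± 0.25 (adjusted p = 0.044, limma) and averaged -0.77 at day 5. Il1rap, the accessory protein that the interleukin-1 receptor needs to signal, went from 0.52, 0.63, 0.32 and 0.48 to 1.10, 1.32, 0.86 and 1.29. The 4 day 2 samples were all above the day 1 samples. The rise of Il1rap was 0.65 ± 0.12 (adjusted p = 0.028, limma).

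These were the 2 called genes, both higher (beside 0.486% of all features), among 26 tested cytokines, chemokines and receptors. The list had a median difference of -0.13, and 15 of the 26 differences were negative, the lowest at -0.96. Il1b itself and its receptor Il1r1 were tested and not called, and they were looked up after the values were seen. The chemokine receptor Cxcr4, which retains leukocytes in the marrow, was also chosen after its values were seen. It had a difference of 0.56 (adjusted p = 0.19, limma), and its 2 probes gave 0.28 and 0.85. Among 15 tested genes of innate sensing and NF-kB none was called in limma and 3 had an unadjusted p under 0.05, all higher (beside 4.6% of all features). The largest differences were those of the fungal sensor Clec7a (0.86, adjusted p = 0.052 in limma) and of Nfkbiz (-0.95, adjusted p = 0.70).

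Txn1 and Glrx, of the thiol redox enzymes, rose. Txn1, the cytosolic thioredoxin, stood at -0.23, -0.48, -0.68 and -0.64 at day 1 and at 0.32, 0.38, 0.09 and 0.53 at day 2. All day 1 samples were below 0 and all day 2 samples above it. Txn1 rose by 0.84 ± 0.15 (adjusted p = 0.028, limma). Glrx, the cytosolic glutaredoxin, rose by 0.83 ± 0.17 (adjusted p = 0.036, limma), from between -0.75 and -0.02 to between 0.07 and 0.82. The list of glutathione, thioredoxin and aldehyde enzymes, which include those that detoxify cyclophosphamide metabolites, had a median of -0.16. These were its 2 calls among 20 tested genes (0.486% of all features were called higher). Aldh1a1, Aldh3a1, Aldh2 and Gstm1 had too few values to be tested. The glutathione peroxidases Gpx4 and Gpx1, chosen after their values were seen, had differences of -0.82 (adjusted p = 0.082, limma; no value in day 2 replicate 2) and -0.47 (adjusted p = 0.34).

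The other called rises were spread over many functions. Myo7b, an unconventional myosin, rose by 1.29 ± 0.24; the chromatin protein Hmgn2 by 1.10 ± 0.21; and the membrane protein Grina by 1.07 ± 0.20 (each with an adjusted p of 0.028 in limma). Pygl, a glycogen phosphorylase, had no value in day 2 replicate 1, and over the other samples it rose by 0.98 ± 0.20. Klra17, of the Ly49 receptor family, rose by 0.81; its probe may also detect close relatives. The rise of the actin-bundling protein Lcp1 was 0.79, but its 2 probes disagreed, with 1.23 for one and 0.12 for the other.

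Smaller rises were called for the AP-1 repressor Jdp2 (0.77), the acyl-CoA dehydrogenase Acadsb (0.76), the nucleotide sugar transporter family member Slc35a5 (0.70) and the small GTPase Rab31 (0.69). Rgs2, a regulator of G protein signalling and an immediate early gene, was the 1 called gene among 11 tested immediate early genes (beside 0.486% of all features called higher). Its day 1 values were 1.90, 2.13, 1.80 and 1.62 and its day 2 values 2.42, 2.39, 2.40 and 2.52, with little spread at day 2. Rgs2 rose by 0.57 ± 0.11 (adjusted p = 0.028, limma). Outside the naming rule, the called rises also held Ublcp1 (0.62), Nudt4 (0.62), Gpr146 (0.59), Rsrc2 (0.55) and Stard7 (0.46). Of 85 tested solute carriers, 2 were called, Slc40a1 and Slc35a5, both higher (beside 0.486% of all features).

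Ms4a6c and F13a1, on the list of monocyte markers, fell. Of 10 tested genes on the monocyte list, 2 were called lower (0.501% of all features were) and none higher, 8 of 10 had a negative difference, and the median was -0.23 log2 units. Ms4a6c, a membrane protein gene expressed in mouse monocytes (gene 73656), measured 1.04, 1.13, 0.31 and 0.74 at day 1 and -0.13, -0.43, -0.40 and -0.35 at day 2. Every day 1 sample was above the marrow reference and every day 2 sample below it, with replicate 3 the lowest at day 1. The fall was -1.13 ± 0.18 (adjusted p = 0.015, limma), and the level was 1.40 in untreated blood and 0.90 at day 5.

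F13a1, the catalytic subunit of coagulation factor XIII, which monocytes and platelets both make, was at 0.53, 0.67, 0.52 and 0.95 at day 1 and at -0.59, -0.22, 0.02 and -0.29 at day 2. Day 1 samples lay close to the untreated mean of 0.58, and all day 2 samples lay below them. The fall was -0.94 ± 0.19 (adjusted p = 0.036, limma). Among the 8 other tested members, the macrophage receptor Adgre1 had the largest difference (-0.52 ± 0.18, adjusted p = 0.21 in limma), with non-overlapping days. Ms4a6b (-0.31), Vcan (-0.26), Mpeg1 (-0.20) and Ms4a7 (-0.10) had smaller negative differences, and the chemokine receptor Cx3cr1 had one near 0 with a 95% interval of -0.39 to 0.39. Cybb (0.05) and the lysozyme gene Lyz2 (0.18), which neutrophils express too, had positive ones. Ccr2, Cd14 and Fcgr1 were not tested for lack of values.

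The median level of the list per sample, which includes the called members, was between 0.46 and 1.00 in the untreated samples, between -0.03 and 0.26 at day 1 and between -0.28 and -0.12 at day 2, and at day 5 between 0.42 and 0.69. Day 2 samples were thus the lowest of the series by this measure, with no overlap with day 1. The neutrophil median was lowest in an untreated sample and highest in day 2 replicate 1. Medians of the neutrophil, neutrophil precursor, NK, platelet, NADPH oxidase and cytosolic ribosomal lists did not overlap between day 1 and day 2 either.

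**Figure D3:**
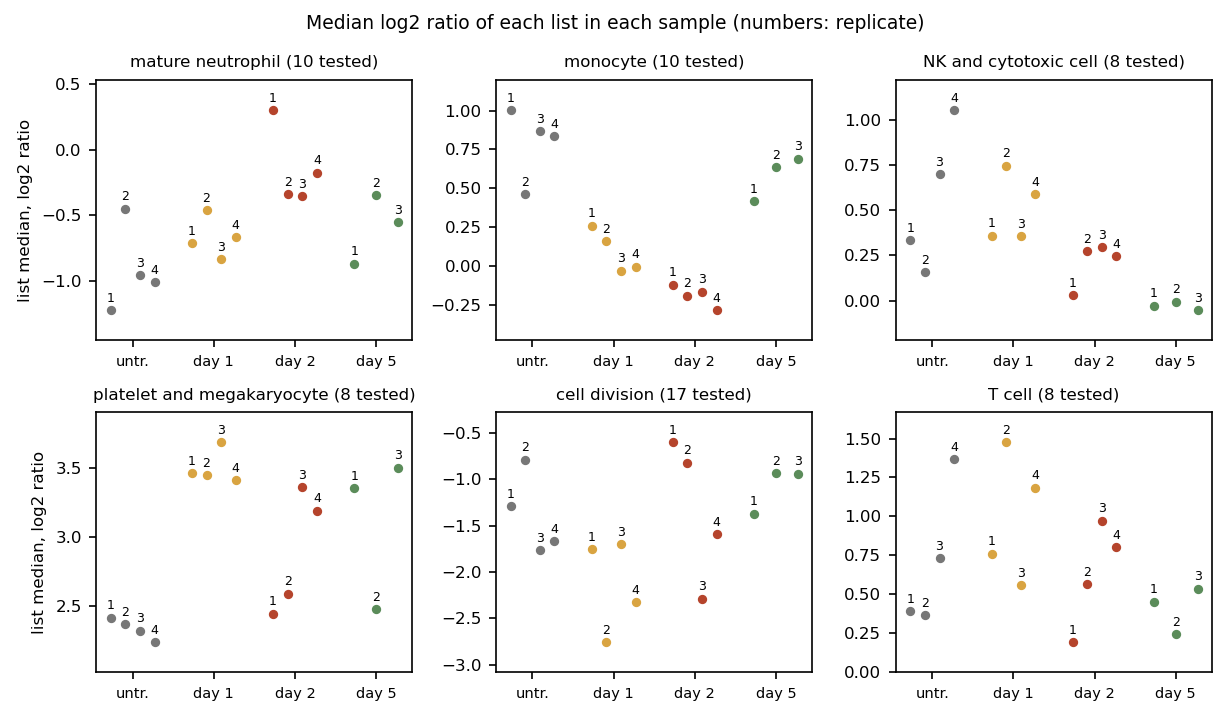
Median log2 ratio of the tested members of 6 marker lists in each sample, with the replicate number above each point; a median is over the members with a value in that sample. The monocyte medians at day 2 (-0.28 to -0.12) lie below those of all other samples, and the platelet and cell division medians separate day 2 replicates 1 and 2 from replicates 3 and 4.

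A further set of falls started from a day 1 level above that of untreated blood. Cd81, a tetraspanin of lymphocytes and other leukocytes, measured 1.82, 2.04, 1.34 and 1.94 at day 1 and -0.11, 0.39, 1.13 and 1.03 at day 2, against 0.18 in untreated blood. Day 2 replicates 1 and 2 were the lowest, and day 2 replicate 3 was only a little under the lowest day 1 sample. The fall was -1.17 ± 0.25 (adjusted p = 0.043, limma). Cd81 was the 1 called gene of 10 tested for homing and adhesion (0.501% of all features were called lower). The integrin Itgb1, chosen after its values were seen, had a difference of -0.97 (adjusted p = 0.065, limma) with the same order of samples at day 2.

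Stom, for the membrane protein stomatin, which is abundant in red cells and platelets, went from -0.12, -0.10, -0.47 and -0.20 to -1.33, -0.84, -1.01 and -1.27. The untreated mean was -0.90, within the day 2 values and below all day 1 values. Stom fell by 0.89 ± 0.14 (adjusted p = 0.015, limma). Gatad1, a chromatin protein, fell by 0.88 ± 0.19 from between 0.97 and 1.39 to between -0.09 and 0.70, with an untreated mean of 0.02. Cyp2b10, named for a drug-inducible liver cytochrome P450 with close relatives that its probe may detect, fell by 1.06 ± 0.24 from between 0.88 and 1.54 to 0.39 or less, with an untreated mean of -0.15. A smaller fall was called for the ubiquitin-conjugating enzyme Ube2r2 (-0.54). Tnfsf13, the B cell survival factor APRIL, and Rasa4 were already under their untreated means at day 1, and fell by 0.83 ± 0.17 and 0.66 ± 0.14.

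Most of the falls, however, shared 1 profile across the samples. For 24 of the 34 (70.6%), 16 of them named, the group means ran from highest to lowest as day 5, untreated, day 1 and day 2, and replicate 3 was the highest of the day 1 samples; 522 of all 6788 tested features (7.69%) had this order. The order was described after the values were seen, and it includes the fall from day 1 to day 2 that the call already used. The median level of the 24 was 0.24 to 0.63 in the untreated samples, -0.85, -0.89, 0.06 and -0.31 in the 4 day 1 samples, and -1.31, -1.78, -1.89 and -1.71 in the 4 day 2 samples. At day 5 it was 0.54 to 1.14. Day 1 replicate 3 thus stood at about the marrow reference, well above the other day 1 samples, and had the fewest values of that group, 46.3% of probes in its sparser column. The part of either fact in these falls was not tested.

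Syt9, a synaptotagmin of regulated secretion, had the largest fall of a named gene and this profile. It was at -0.99, -1.01, 0.42 and -0.32 at day 1 and at -1.64, -2.13, -2.32 and -2.54 at day 2, a fall of 1.68 ± 0.28 (adjusted p = 0.022, limma). Serpina1a, for an alpha-1 antitrypsin made chiefly by the liver and with near-identical copies in the mouse, measured -1.13, -1.14, 0.06 and -0.49 at day 1 and -1.38, -2.55, -2.32 and -2.23 at day 2. Myf6, a transcription factor of skeletal muscle, measured -1.21, -1.09, 0.25 and -0.47 and then -1.51, -2.21, -2.34 and -2.0. In these 3 genes the day 1 samples were scattered, with replicates 1 and 2 the lowest, and replicate 1 was the highest of day 2.

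Serpina1a fell by 1.44 ± 0.30 (adjusted p = 0.039, limma) and Myf6 by 1.39 ± 0.27 (adjusted p = 0.031, limma). Both stood on the list of genes of other tissues, with a list median of -0.08. They were its 2 calls among 9 tested genes (0.501% of all features were called lower). What these probes measured in blood was not tested. The calcium-binding annexin Anxa4 fell by 1.37, the endoplasmic reticulum protein Stimate by 1.25, the kallikrein Klk1b5 by 1.16, the skin barrier protein Lce1d by 1.15 and the RNA-binding protein Pcbp1 by 1.14. Daw1, which assembles cilia, fell by 1.11, Uba7, the activating enzyme for the interferon-induced modifier Isg15, by 1.10, the carbonic anhydrase Car4 by 1.05, and Sae1, a subunit of the activating enzyme for SUMO, by 1.03. The smaller falls with this order were those of Zswim2 (-0.69), Dnmt3l (-0.61), the complement factor C6 (-0.59) and the Hsp40 protein Dnaja2 (-0.54). Dnaja2 was the 1 call among 12 tested heat shock and chaperonin genes (0.501% of all features were called lower).

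**Figure D4:**
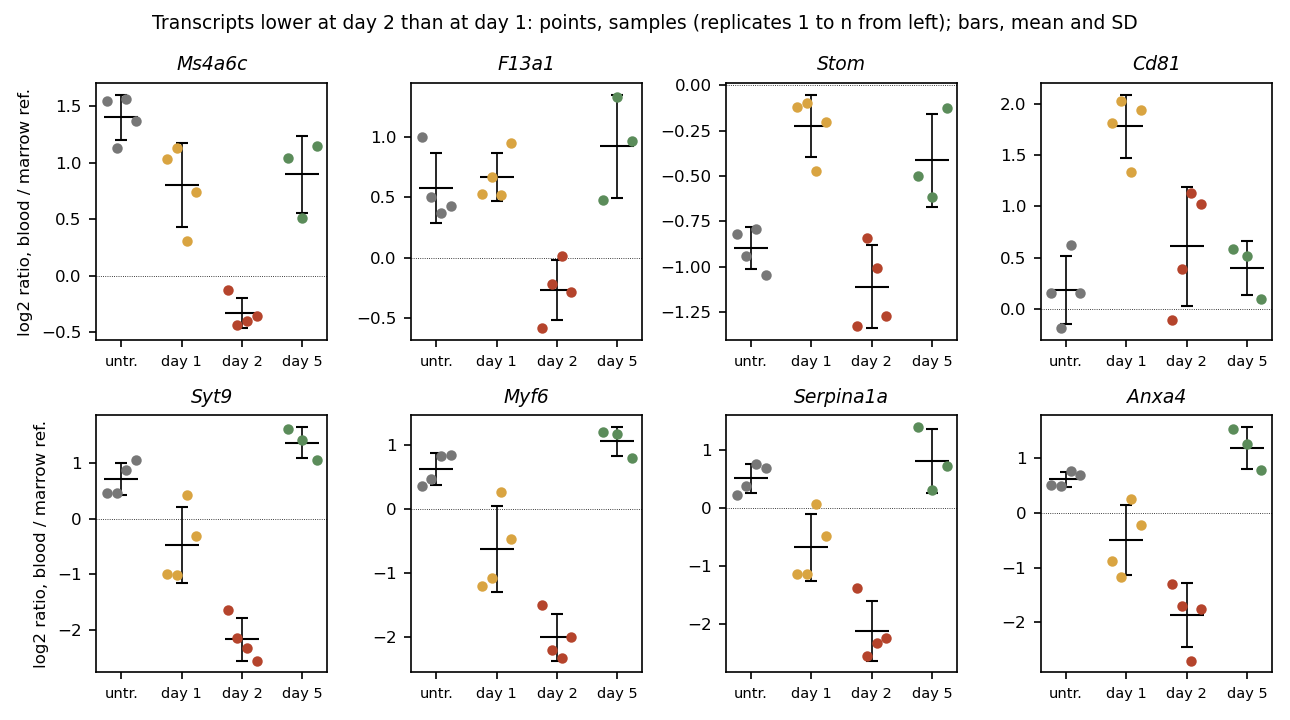
Log2 ratio of blood over marrow reference in each sample for 8 of the called falls, by group; points are samples, replicates in order from the left, and bars give the mean and SD (n = 4, at day 5 n = 3). In the upper row, Stom and Cd81 are highest at day 1; in the lower row Syt9, Myf6, Serpina1a and Anxa4 share the order day 5, untreated, day 1, day 2, with replicate 3 the highest at day 1.

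Platelet transcripts had large differences that were not called. Platelets carry RNA from megakaryocytes and are easily taken along when leukocytes are prepared, and in all 15 samples the median of this list was well above the marrow reference. Of 8 tested genes 0 were called in limma, and 4 had an unadjusted p under 0.05, all lower (beside 6.94% of all features). A negative difference was found in 7, and the median was -0.62 (-0.36 after quantile normalization). Pf4, a platelet chemokine, measured 4.43, 3.74, 3.81 and 3.77 at day 1 but 0.57, 1.27, 3.69 and 3.72 at day 2. Replicates 1 and 2 were far below day 1 at day 2, and replicates 3 and 4 were at the day 1 level. The difference was -1.62 ± 0.61, with a 95% interval of -2.91 to -0.33 and an adjusted p of 0.29 in limma.

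The receptor Treml1 divided the day 2 samples in the same way, with 3.81, 3.70, 3.53 and 3.41 at day 1 and 1.97, 2.21, 3.11 and 3.02 at day 2 (-1.04, adjusted p = 0.29 in limma). Clusterin, Clu, was at 2.82 in day 2 replicate 1 and between 4.33 and 4.59 in the others, and its difference was -0.95. The integrin Itga2b (-0.65), the thrombin receptor F2rl2 (-0.59), Nrgn (-0.29) and Plek (-0.17) had smaller negative differences. Ppbp, another platelet chemokine, had one of 0.11 and its samples overlapped widely. The list median was 2.24 to 2.41 in untreated blood and 3.41 to 3.69 at day 1; at day 2 it was 2.44, 2.59, 3.36 and 3.19. Stom and F13a1, both expressed in platelets, were lower in all 4 day 2 samples than in any day 1 sample. The part of platelets in either fall was not tested.

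Genes of dividing cells divided the day 2 samples the other way round. Blood normally holds few dividing cells, and the list medians for cell division were below 0 in all samples. Of 17 tested cell division genes 0 were called in limma. An unadjusted p under 0.05 was found for 4 as higher and 1 as lower (beside 4.6% and 6.94% of all features). The difference was positive in 14, and the median was 0.45. Cdk1, the kinase that drives entry into mitosis, measured -4.12, -3.90, -3.88 and -4.22 at day 1 and -2.27, -1.21, -3.46 and -3.86 at day 2. Replicates 1 and 2 were raised, while replicates 3 and 4 were only slightly above day 1. The difference was 1.33 ± 0.48, with a 95% interval of 0.32 to 2.34 and an adjusted p of 0.25 in limma.

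Prc1, which bundles the spindle midzone, had a difference of 1.32 with overlapping days. Chosen after their values were seen, Ect2, needed for cytokinesis, and Cks2, a Cdk subunit, had differences of 1.06 and 0.50 without overlap, and the mitotic kinase Plk1 one of -0.58. The list median was -1.75, -2.76, -1.70 and -2.33 at day 1 and -0.60, -0.82, -2.29 and -1.59 at day 2. Of 17 tested DNA replication genes 0 were called in limma. An unadjusted p under 0.05 was found for 2 as higher and 1 as lower (beside 4.6% and 6.94% of all features). The difference was positive in 15, and the median was 0.27. Thymidine kinase, Tk1, measured -2.46, -3.07, -2.0 and -2.93 at day 1 and -1.22, -1.15, -1.21 and -1.67 at day 2, a difference of 1.30 with an adjusted p of 0.24 in limma. Tk1 was higher in all 4 day 2 samples; the thymidylate synthase Tyms (0.84) was higher in replicates 1 and 2 alone of the day 2 samples when set against all day 1 samples.

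Lymphocyte lists gave no call. Of 8 tested NK and cytotoxic cell genes 0 were called in limma, and the median was -0.37. An unadjusted p under 0.05 was found for 4, all lower (beside 6.94% of all features). Nkg7, a granule membrane protein of cytotoxic cells, came nearest, with 0.84, 1.09, 0.76 and 0.58 at day 1 and 0.01, 0.30, 0.30 and 0.34 at day 2. The days did not overlap, and the difference of -0.58 ± 0.13 had an adjusted p of 0.052 in limma. Gzmk, a granzyme, had a difference of -0.60 without a value in day 2 replicate 1, the transcription factors Eomes and Tbx21 differences of -0.40 and -0.34, Klrk1 -0.44, Cst7 -0.33 and Klrd1 -0.15, and the receptor Ncr1 one of 0.06. The 2 Eomes probes gave -0.13 and -0.47, and the second, with the higher level, had values in only 3 day 2 samples.

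Of 8 tested T cell genes 0 were called in limma and the median was -0.40. An unadjusted p under 0.05 was found for 1, lower (beside 6.94% of all features). Lat, a signalling adaptor (-1.08), and the costimulatory receptor Cd28 (-0.91) had the largest differences. The day 1 level of Lat included a probe with no day 2 value, and its other probe gave -1.48. Cd3e, Cd3g and Cd8a were not tested. The 3 tested regulatory T cell genes had a median of -0.44, and Foxp3 was not tested. For 10 tested B cell genes 0 were called in limma and the median was 0.00. In each direction 1 had an unadjusted p under 0.05 (beside 4.6% of all features higher and 6.94% lower). The largest differences were those of Cd72 (-0.60) and of Cd22 (-0.47), both inhibitory receptors. Cd79a was not tested.

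**Figure D5:**
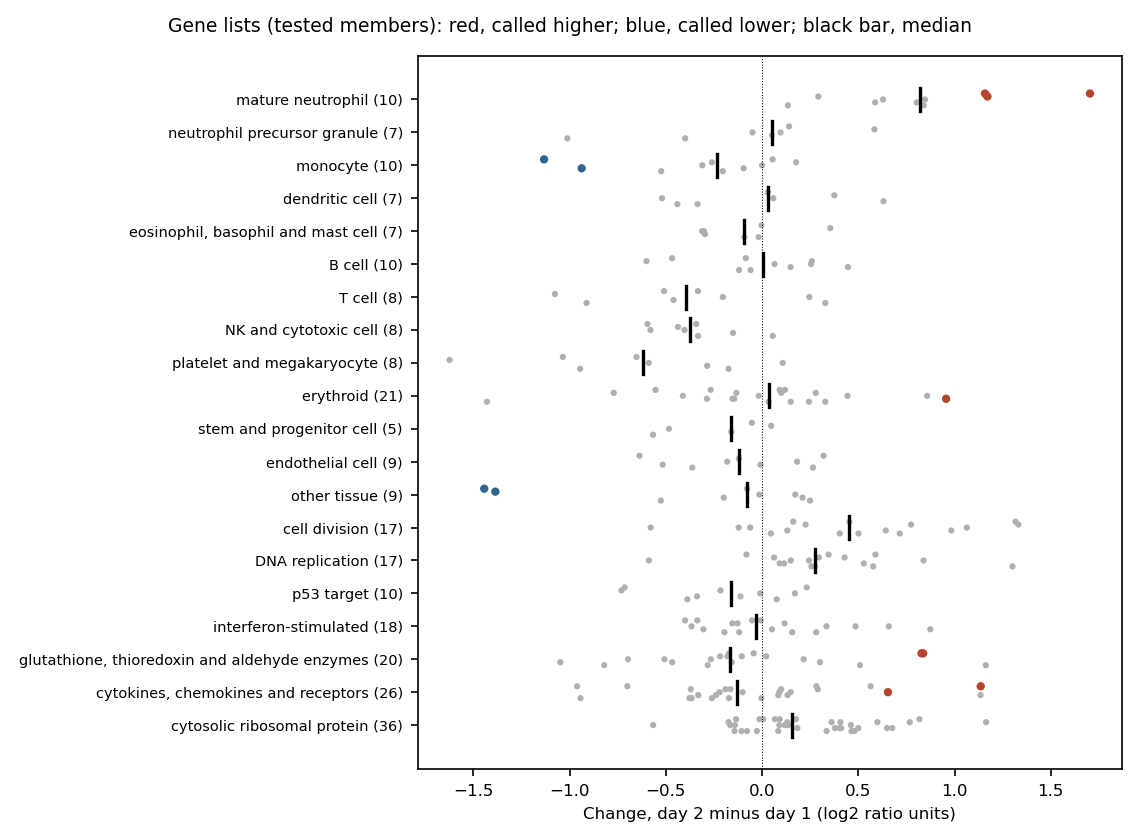
Change from day 1 to day 2 in log2 ratio units for the tested members of 20 gene lists; each point is a gene (red, called higher; blue, called lower; grey, not called), the number tested is in parentheses, and the black bar is the list's median. Red points appear on the mature neutrophil, erythroid, redox and cytokine lists and blue points on the monocyte and other tissue lists; the platelet, NK, T cell, cell division and replication lists are shifted with grey points alone.

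Lists of DNA damage, cell death, interferon and ribosomal genes gave no call. In limma 0 of 10 tested p53 targets were called (3 had an unadjusted p under 0.05, all lower, beside 6.94% of all features), with a median of -0.16; the largest differences were -0.73 for the stress gene Ddit4 and -0.71 for the death receptor Tnfrsf10b. None of 11 apoptosis genes and 10 DNA repair genes was called in limma, with medians of -0.03 and 0.01. In each list 1 gene had an unadjusted p under 0.05 (beside 11.5% of all features in either direction). Interferon-stimulated genes had 0 calls in limma among 18 and a median of -0.03. An unadjusted p under 0.05 was found for 3, all higher (beside 4.6% of all features). The largest differences were in Ifitm2 (0.87, adjusted p = 0.089 in limma) and Gbp2 (0.66). Cytosolic ribosomal proteins had 0 calls in limma among 36 (8 had an unadjusted p under 0.05, all higher, beside 4.6% of all features) and a median of 0.16, the largest difference being that of Rps27 (1.16).

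The samples were not equally alike. Over the tested features, day 1 samples correlated with each other with a median r of 0.89 (0.84 to 0.91), day 2 samples with 0.78 (0.71 to 0.83), and samples of the 2 days with 0.76 (0.66 to 0.88). Day 2 replicates 3 and 4 had median correlations of 0.83 and 0.84 with day 1, replicates 1 and 2 of 0.69 each. A column held values for 39.5% to 69.3% of the 13443 probes in its sparser technical replicate in these 8 samples, the fewest in day 2 replicate 1. Technical replicates correlated between 0.83 and 0.96. Over the 32 called rises with all values, day 2 replicate 3 was the nearest to day 1 in 24; over the 34 falls, replicate 1 was in 21. The pan-leukocyte gene Ptprc had a value in 1 sample of each day and could not be used to check the label. Medians of the T cell and NK lists were above the marrow reference in all 8 samples. Those of the B cell list were below it in all day 1 samples, and those of the monocyte list in all day 2 samples. The neutrophil median was between -0.83 and -0.46 at day 1 and between -0.35 and 0.30 at day 2. Of other leukocyte genes, Cd52 averaged 0.14 at day 1 and 0.37 at day 2, and Lcp1 -0.38 and 0.41.

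The calls as a set depended on the samples that share in the estimate of spread. Fitted on the day 1 and day 2 samples alone, limma called 4 features, all higher, among them Slc40a1, Cyp4f18 and S100a9, and 0 lower (858 features had an unadjusted p under 0.05). Leaving out 1 sample at a time gave between 3 calls, without day 1 replicate 4, and 86, without day 2 replicate 3; 6 were left without day 1 replicate 3, 8 without day 2 replicate 2, and 28, 38, 25 and 44 without untreated replicates 1, 2, 3 and 4. All 52 named calls kept their direction in each of the alternatives in which they were tested. As the days did not overlap in any called feature, leaving out samples could not have reversed a direction. Slc40a1 and Cyp4f18 were called in 27 of 27 alternatives, Stom and Ms4a6c in 25, Chil1 and Syt9 in 24, Csf3r and Txn1 in 23, F13a1 in 15, Cd81 in 13, Il1rn in 12 and S100a9 in 11. The fewest were for Ppox, Dnmt3l and Gpr146, each called in 8, and Cyp2b10, in 9.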

How the data were processed

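Gene expression of peripheral blood leukocytes was measured on 2-colour arrays in 15 samples with 2 technical replicates each (untreated 4, day 1 4, day 2 4, day 5 3). The values deposited by the authors are log ratios per probe, taken here as log2 of Cy5 (blood) over Cy3 (marrow reference) from the dyes per the labels; how they were scanned, corrected and normalized, their log base and why values are empty: not given in the sources used here. Values ran from -4.7 to 5.76, beyond the 4.82 that a log10 ratio could reach on a scanner with the usual range; a natural logarithm is possible, and would rescale all printed log2 values alike. Column medians lay between -0.0028 and 0.025, so the ratios show unequal change, not amounts. The reference was assumed to be the same throughout and then drops out of differences.

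Probes were named by the platform annotation: 10032 had 1 symbol, 170 several and 3241 none, and those with several or none were left unnamed. Probes were averaged for 389 symbols with several, 0 of 9616 symbols changed against the RefSeq gene table and 4 were missing from it. Features with values in at least 3 of 4 samples of each day were tested in R 4.3.3 by limma 3.58.1: a group-means model fitted to the 15 samples, the contrast day 2 minus day 1, eBayes and Benjamini-Hochberg adjustment over 6788 features; called means an adjusted p under 0.05. The labels call the samples independently harvested; whether each is 1 mouse is not given, and p-values measure the spread between samples. The number of arrays limits the precision. The procedure was checked on simulated data.

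The comparison, the 42 gene lists and the rules were chosen with earlier results of these data known, so lists carry no test. Named were the 20 largest called rises and falls without overlap, up to 4 called members of each list or else its 2 largest differences, all tested members of the neutrophil, monocyte, NK and platelet lists, and genes said to be chosen after their values were seen; the called genes outside the rule, and single members looked up as untested or uncalled, belong to the last kind. Alternatives changed the samples in the fit, the replicate block, the filter, the normalization, the technical replicates, the choice of probe and the model of spread.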

Additional observations from a re-analysis of the deposited data

Results flagged for a closer look

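Of 414 sets of 4 samples looked at, 20 held a sample farther from the others than Dixon's 95% limit allows; chance alone flags about 1 in 20. Among the day 1 samples, replicate 1 was high in Acadsb (-0.738, others up to -0.938), Klra17 (0.339, others up to 0.0211) and Pf4 (4.43, others up to 3.81), and low in Dnaja2 (-0.0743, others from 0.0798). Replicate 2 was high in Cxcr4 (0.626, others up to 0.305). Replicate 3 was low in Rab31 (-0.789, others from -0.461), Ifitm2 (0.281, others from 0.649) and the vascular receptor Kdr (-0.234, others from 0.645), and high in Ppbp (3.70, others up to 2.34) and the ribosomal protein Rpl35 (0.483, others up to -0.626).

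At day 2, replicate 1 was low in Nkg7 (0.0119, others from 0.296), Clu (2.82, others from 4.33) and Eomes (-0.382, others from 0.248), and high in Alas2 (-1.33, others up to -3.05). The Eomes probe with the higher level (0.92 at day 1, the other 0.17) had no value in day 2 replicate 1. The Eomes value of that sample rests on the lower probe alone. Replicate 3 was low in Adgre1 (-0.399, others from -0.119) and Cd72 (-2.09, others from -1.11). Replicate 4 was low in Tk1 (-1.67, others from -1.22) and high in Mpeg1 (0.149, others up to -0.118). In untreated blood, replicate 4 was high in Ube2r2 (0.552, others up to 0.212) and replicate 1 low in the splicing factor Hnrnpll (-1.02, others from -0.604).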

How the results depend on the processing

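The count of 67 calls (33 higher, 34 lower) fell to 4 (4 and 0) with the day 1 and day 2 samples alone, to 28 (16 and 12) with no filter on missing values, which tested 8931 features, and to 43 with either technical replicate alone (20 higher with the first, 19 lower with the second). It rose to 101 (59 lower) over the 5129 features with all 8 values, to 115 (77 lower) with array weights and to 272 (94 higher, 178 lower) with both technical replicates kept and the sample as a random effect. Quantile normalization gave 57 calls (29 higher, 28 lower), centring 54, the probe with most values 72 and a robust trended prior 72. Leaving out 1 sample at a time gave 3 to 86 calls, 3 to 48 higher and 0 to 47 lower. With the replicate block, which is not a pairing the labels give, 28 features were called, 18 higher and 10 lower. Same-numbered samples of the 2 days had deviations correlated between -0.123 and 0.0988, and differently numbered ones between -0.339 and 0.405. With so few samples a day, these values cannot show whether the numbers pair the samples. Of the 52 named calls, 19 were called with the block and 3 with the 2 days alone. All 52 kept their direction throughout, which leaving out samples could not have changed, as no call overlapped between the days. Among lists, the monocyte median ran from -0.40 to -0.16 over the alternatives, the platelet median from -0.69 to -0.36, the neutrophil median from 0.72 to 1.00 and that of cell division from 0.29 to 0.57. The cause of these shifts in number was not tested.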
